A study of Homo sapiens with 6 samples.

Results

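FOXO transcription factors and a set of genes they induce were followed in human mammary epithelial cells in which SHP2, the tyrosine phosphatase encoded by PTPN11, had been reduced. The set holds 10 genes, out of 18377 genes measured. They are the factors FOXO1 and FOXO3 and the FOXO-induced genes FBXO32, PDK4, TNFSF10, TXNIP, CCNG2, IRS2, INSR and PIK3IP1. A gene was taken from a probe set carrying its symbol alone, and each of the 10 had 1 such probe set. The cells were MCF10A-HER2/3, a derivative of MCF10A, an immortalised, non-tumour human breast epithelial line. An inducible lentiviral vector gave them SHP2 miR1, SHP2 miR2 or the control CTRL miR, with 2 arrays per group and 6 in all. All groups grew as three-dimensional cultures for 15 days in medium with EGF, insulin, hydrocortisone, cholera toxin and horse serum. All received doxycycline, the inducer, from the day after seeding and every 2 days thereafter, so the controls received the vector and the drug too. The labels do not say whether a line is 1 clone, and parental cells or cells without doxycycline were not analysed here. The labels do not say whether the 2 arrays of a group hold different cultures. A p-value here therefore reflects array-to-array spread, possibly technical.

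FOXO factors are switched by the PI3K-AKT pathway. When growth factor or insulin receptors are active, AKT phosphorylates FOXO proteins, which are then bound by 14-3-3 proteins and held in the cytoplasm. When AKT activity drops, FOXO proteins enter the nucleus and induce genes for cell cycle arrest, cell death, altered fuel use and renewed sensitivity to insulin. Their induced transcripts are therefore widely read as a sign of lowered PI3K-AKT signalling, and SHP2 is known to act between receptors and both the RAS-ERK and PI3K pathways. Arrays measure RNA, and hold no measure of FOXO phosphorylation or location.

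With the SHP2 miRs, 4 of the 10 genes rose, 1 fell and 5 did not pass the test. FBXO32 (a ubiquitin ligase subunit), PDK4 (a mitochondrial kinase) and TNFSF10 (a death ligand) rose by 2.50-fold to 3.32-fold, and the PI3K inhibitor gene PIK3IP1 rose by 1.51-fold. IRS2, the adaptor that couples insulin receptors to PI3K, fell by 1.94-fold. FOXO1, FOXO3, TXNIP, CCNG2 and INSR did not pass. The test was a linear model over all 18377 genes (limma) for the mean of both SHP2 miRs minus CTRL miR, with p-values adjusted by the Benjamini-Hochberg method and a threshold of 0.05. Over all genes, 4.20% passed, with 1.53% higher and 2.67% lower. The median difference was 0.27 over the 10 genes and 0.02 over all genes (log2). By sign alone, 5 of the 10 were higher and 5 lower. The median of the 10 fell in the gap between FOXO1, at -0.0022, and FOXO3, at 0.55. Fewer cells of a type and less RNA per cell cannot be told apart in these whole-culture extracts. Leaving out control replicate 1 lowered the count of 5 to 3, and leaving out control replicate 2 lowered it to 2.

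The labelled cell type and the target were checked first. PTPN11 had 6.04 and 5.71 in SHP2 miR1 cultures, 6.90 and 7.28 in SHP2 miR2 cultures, against 7.96 and 8.44 in CTRL miR cultures (log2). All 4 SHP2 miR arrays lay below both controls, and SHP2 miR1 lowest. Among 8 measured mammary epithelial markers the means ran from 6.05 (EPCAM) to 11.3 (KRT5), a range that overlaps those of other cell types below. KRT14, a basal keratin, was the 1 that passed, higher by 1.10 (SE 0.14, adjusted p = 0.00440). The mean over these 8 markers was 9.66 to 9.75 with SHP2 miR1 and 9.67 to 9.77 with SHP2 miR2, against 9.42 to 9.46 with CTRL miR. Markers of other cell types varied in level. Among 7 fibroblast genes the means ran from 3.06 (LUM) to 8.30 (DCN), among 5 leukocyte genes from 3.33 (PTPRC) to 9.22 (CD68), among 5 endothelial genes from 4.28 (CDH5) to 5.66 (TEK), and among 5 adipocyte genes from 3.18 (FABP4) to 5.19 (PLIN1). The average level of the leukocyte genes was 5.72 to 5.79 with SHP2 miR1 and 5.59 to 5.79 with SHP2 miR2, against 5.48 to 5.58 with CTRL miR. That of the endothelial genes was 4.77 to 4.87 with SHP2 miR1 and 4.88 to 4.96 with SHP2 miR2, against 4.91 to 4.97 with CTRL miR. That of the fibroblast genes was 5.34 to 5.40 with SHP2 miR1 and 5.30 to 5.39 with SHP2 miR2, against 5.39 to 5.43 with CTRL miR. That of the adipocyte genes was 4.52 to 4.61 with SHP2 miR1 and 4.35 to 4.37 with SHP2 miR2, against 4.37 to 4.49 with CTRL miR. Of the 22 markers of other cell types, PECAM1 rose by 0.60 and TEK fell by 1.38, and no other passed in limma, while 6 of the 22 had an unadjusted p under 0.05. Their part in the results below was not tested.

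Before the values, the start regions of the genes are shown, because FOXO proteins bind a short DNA core and the genes that moved can be set beside those that did not. A window from 250 bases before to 50 bases after a gene start was given by RefSeq (GRCh38.p14) for 9 of the 10 genes. FBXO32 did not match. The letters searched on either strand were the FOXO cores GTAAACA and CAAAACA, the E-box CACGTG and the looser CACGNG, which includes every CACGTG and is of the kind bound by the glucose-sensing factors that induce TXNIP. Capitals mark every match, and each window is written along the gene's own strand.
PDK4, chr7:95596467-95596766, minus strand: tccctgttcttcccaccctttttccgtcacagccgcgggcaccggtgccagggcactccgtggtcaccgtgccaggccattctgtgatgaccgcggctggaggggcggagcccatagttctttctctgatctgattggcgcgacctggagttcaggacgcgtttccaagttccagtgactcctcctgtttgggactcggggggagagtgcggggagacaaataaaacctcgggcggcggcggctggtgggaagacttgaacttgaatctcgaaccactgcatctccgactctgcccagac
TNFSF10, chr3:172523381-172523680, minus strand: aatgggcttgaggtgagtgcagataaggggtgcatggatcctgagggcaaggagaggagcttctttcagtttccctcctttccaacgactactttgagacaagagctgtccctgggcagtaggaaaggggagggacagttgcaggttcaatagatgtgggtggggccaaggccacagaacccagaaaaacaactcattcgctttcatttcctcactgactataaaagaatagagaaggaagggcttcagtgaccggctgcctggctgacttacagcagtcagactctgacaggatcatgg
PIK3IP1, chr22:31292439-31292738, minus strand: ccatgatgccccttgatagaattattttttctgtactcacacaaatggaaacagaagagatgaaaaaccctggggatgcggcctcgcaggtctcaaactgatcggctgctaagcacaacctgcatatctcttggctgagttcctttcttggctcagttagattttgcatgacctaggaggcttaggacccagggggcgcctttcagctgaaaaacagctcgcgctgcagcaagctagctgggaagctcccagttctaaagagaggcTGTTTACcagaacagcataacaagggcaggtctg
IRS2, chr13:109786534-109786833, minus strand: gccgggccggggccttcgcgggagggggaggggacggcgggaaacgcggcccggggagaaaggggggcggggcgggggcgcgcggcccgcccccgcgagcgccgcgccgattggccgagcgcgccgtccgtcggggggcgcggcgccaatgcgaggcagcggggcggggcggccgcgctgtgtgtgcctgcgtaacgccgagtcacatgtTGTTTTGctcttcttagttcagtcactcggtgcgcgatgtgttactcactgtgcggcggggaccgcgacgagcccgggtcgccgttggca
TXNIP, chr1:145996530-145996829, minus strand: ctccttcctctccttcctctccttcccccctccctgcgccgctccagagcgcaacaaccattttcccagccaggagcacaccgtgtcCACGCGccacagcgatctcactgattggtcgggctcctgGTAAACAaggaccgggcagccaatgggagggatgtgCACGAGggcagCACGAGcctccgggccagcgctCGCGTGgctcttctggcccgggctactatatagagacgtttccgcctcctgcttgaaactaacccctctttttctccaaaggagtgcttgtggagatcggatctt

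The windows of PDK4 and TNFSF10, which rose most among the genes with a window, held none of these letters. GTAAACA was present in TXNIP, 124 bases upstream of the start, and on the opposite strand in PIK3IP1, 17 bases after this start. For TXNIP and PIK3IP1 alike, the gene's other window held none of the letters searched. CAAAACA was present on the opposite strand in IRS2, 40 bases upstream. The TXNIP window shown also held 4 matches to CACGNG, 2 of them reading CACGAG at 88 and 77 bases upstream. Among the genes not shown, CCNG2 held CACGTG 30 bases upstream, and FOXO1, FOXO3 and INSR held CACGNG. FOXO3 also had windows without a match. Of all 35116 windows in the table, 3.42% held GTAAACA, 4.92% CAAAACA, 7.26% CACGTG and 30.5% CACGNG. These are matches of letters only.

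Neither FOXO factor passed the test. FOXO1 had 9.84 and 9.91 in SHP2 miR1 cultures, 10.02 and 9.96 in SHP2 miR2 cultures, against 9.90 and 9.96 in CTRL miR cultures. The groups overlapped, and the average difference was -0.0022 (SE 0.12, adjusted p = 0.994), with a 95% interval of -0.28 to 0.28. FOXO3 had 7.34 and 6.79 in SHP2 miR1 cultures, 6.49 and 6.82 in SHP2 miR2 cultures, against 6.17 and 6.45 in CTRL miR cultures. All 4 SHP2 miR arrays lay above both controls, SHP2 miR2 replicate 1 by only a narrow margin. The average difference for FOXO3 was 0.55 (SE 0.19, 95% interval 0.12 to 0.97), which did not pass (adjusted p = 0.145). A second probe set is annotated to both FOXO3 and its close copy FOXO3B, and cannot be assigned to either. It lay between 9.04 and 9.26 on all 6 arrays, with overlapping groups.

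**Figure D1:**
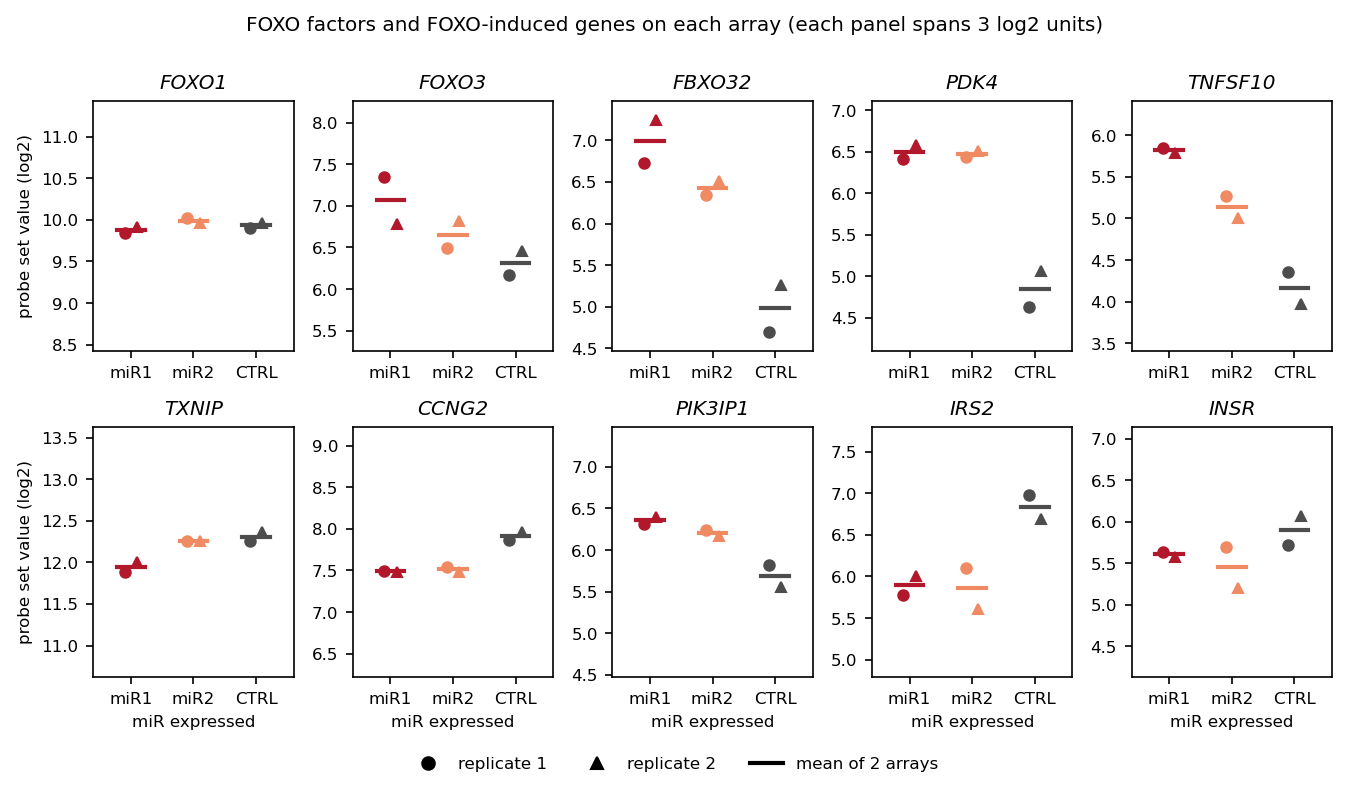
Probe set values (log2, y axis) of the 10 genes with SHP2 miR1, SHP2 miR2 and CTRL miR (x axis); points are single arrays, circles replicate 1 and triangles replicate 2, and bars the means of 2 arrays. Each panel spans 3 log2 units, so distances can be compared between panels: FBXO32, PDK4 and TNFSF10 stand well above their controls, IRS2 stands below, and FOXO1 overlaps its controls.

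FBXO32 showed the largest difference of the set. It encodes atrogin-1, the substrate-binding subunit of an SCF ubiquitin ligase, best known from muscle, where FOXO factors induce it during atrophy. Its values were 6.73 and 7.25 in SHP2 miR1 cultures, 6.34 and 6.51 in SHP2 miR2 cultures, against 4.69 and 5.26 in CTRL miR cultures. Every SHP2 miR array lay more than 1 log2 unit above the higher control. On average FBXO32 rose by 1.73 (SE 0.20, 3.32-fold, adjusted p = 0.00263), and by 1.44 to 2.01 with any 1 array left out, always past the threshold.

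PDK4 encodes a kinase that shuts off pyruvate dehydrogenase, and so turns cells from glucose oxidation towards fatty acids. Its values were 6.41 and 6.58 in SHP2 miR1 cultures, 6.44 and 6.51 in SHP2 miR2 cultures, against 4.63 and 5.07 in CTRL miR cultures. The 4 SHP2 miR arrays lay close together and far above both controls. PDK4 rose by 1.64 (SE 0.16, 3.11-fold, adjusted p = 0.00104) and stayed past the threshold with each array left out. PDK1, PDK2 and PDK3 are kinases of the same family, with differences of -0.41, 0.39 and -0.27, and PDP1, a phosphatase that reverses their action, had -0.37. None of these passed, and the contrast between genes was not tested. These relatives, and those given beside other genes below, were named after their values were seen.

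TNFSF10 encodes TRAIL, a secreted or membrane-bound ligand that triggers apoptosis through its death receptors. It had 5.85 and 5.79 in SHP2 miR1 cultures, 5.28 and 5.002 in SHP2 miR2 cultures, against 4.35 and 3.97 in CTRL miR cultures. The 3 groups did not overlap, with SHP2 miR1 highest and CTRL miR lowest. TNFSF10 rose by 1.32 (SE 0.16, 2.50-fold, adjusted p = 0.00277), and reached an adjusted p of 0.0539 without control replicate 2, where the difference was 1.13. The receptors did not pass. The death receptor genes TNFRSF10A and TNFRSF10B had differences of -0.20 and -0.16, the decoy receptor gene TNFRSF10D had -0.39, and the soluble decoy gene TNFRSF11B had 0.24.

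TXNIP and CCNG2, both induced by FOXO factors in other settings, did not pass the test. TXNIP, an arrestin-like protein that binds thioredoxin and curbs glucose uptake, was bright on all arrays. Its values were 11.89 and 12.003 in SHP2 miR1 cultures, 12.26 and 12.26 in SHP2 miR2 cultures, against 12.25 and 12.36 in CTRL miR cultures. SHP2 miR1 lay lowest, and SHP2 miR2 overlapped the controls. The average difference was -0.20 (SE 0.13, adjusted p = 0.391), and it passed, lower, with a mean-variance trend in the prior (adjusted p = 0.00782). CCNG2, an unconventional cyclin linked to cell cycle arrest, had 7.49 and 7.48 in SHP2 miR1 cultures, 7.55 and 7.48 in SHP2 miR2 cultures, against 7.87 and 7.96 in CTRL miR cultures. All 4 SHP2 miR arrays lay below both controls, with a difference of -0.41 (SE 0.12) that did not pass (adjusted p = 0.105), but did, lower, with the trend (adjusted p = 0.0298). Neither thioredoxin, TXN, at -0.49, nor the TXNIP relatives ARRDC3 and ARRDC4, at -0.47 and 0.14, passed. The CCNG2 relative CCNG1 had 0.10.

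Of the insulin receptor INSR and its adaptor IRS2, only IRS2 passed, and it was lower. IRS2 had 5.78 and 6.003 in SHP2 miR1 cultures, 6.10 and 5.61 in SHP2 miR2 cultures, against 6.98 and 6.69 in CTRL miR cultures. All 4 SHP2 miR arrays lay at least 0.5 log2 units below the lower control. IRS2 fell by 0.95 (SE 0.17, 1.94-fold, adjusted p = 0.0184), and it missed the threshold without control replicate 1 (-0.81, adjusted p = 0.114) or control replicate 2 (-1.10, adjusted p = 0.112). FOXO factors are known to induce IRS2 in liver. The direction of IRS2 here was opposite to that of FBXO32, PDK4 and TNFSF10. Its relative IRS1 had 0.33 (SE 0.14, adjusted p = 0.229). INSR had 5.64 and 5.58 in SHP2 miR1 cultures, 5.69 and 5.20 in SHP2 miR2 cultures, against 5.72 and 6.07 in CTRL miR cultures. Its SHP2 miR arrays all lay below both controls, by little for all but SHP2 miR2 replicate 2, and the difference of -0.36 (SE 0.17) did not pass (adjusted p = 0.268).

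PIK3IP1 encodes a membrane protein that binds the catalytic subunit of PI3K and inhibits it. It had 6.32 and 6.40 in SHP2 miR1 cultures, 6.24 and 6.16 in SHP2 miR2 cultures, against 5.82 and 5.56 in CTRL miR cultures. All 4 SHP2 miR arrays lay above both controls. PIK3IP1 rose by 0.59 (SE 0.14, 1.51-fold, adjusted p = 0.0448). This call was close to the threshold and was lost with any 1 array left out, at adjusted p-values of 0.0812 to 0.350, and after centring on array medians (adjusted p = 0.0501).

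Taking the arrays alone, 5 of the 10 genes had all SHP2 miR arrays above both controls, 3 had all of them below, and FOXO1 and TXNIP overlapped. Over all genes, 12.6% lay wholly above, 13.6% wholly below and 26.1% on either side. Besides the 5 genes that passed, those beyond the controls were FOXO3 above and CCNG2 and INSR below.

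The 2 SHP2 miRs were then compared, first each against the same control arrays. With SHP2 miR1 the same 5 genes passed, 4 higher and 1 lower, where 8.60% of all genes passed (2.66% higher and 5.94% lower). With SHP2 miR2, FBXO32 and PDK4 passed, both higher, where 0.370% of all genes passed (0.190% higher and 0.180% lower). The share of higher genes among all calls for SHP2 miR1 was 30.9%, and 19.7% after centring on array medians. The count for SHP2 miR1 was 3 when control replicate 2 or either SHP2 miR1 array was left out, and without either control or either SHP2 miR2 array the count for SHP2 miR2 was 0.

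For PDK4 the differences from the controls lay close together, at 1.65 (SE 0.18, adjusted p = 0.00132) for SHP2 miR1 and 1.63 (SE 0.18, adjusted p = 0.00946) for SHP2 miR2. The difference for FBXO32 was 2.01 (SE 0.23, adjusted p = 0.00167) for SHP2 miR1 and 1.45 (SE 0.23, adjusted p = 0.0425) for SHP2 miR2. TNFSF10 had 1.66 (SE 0.18, adjusted p = 0.00122) for SHP2 miR1 and 0.98 for SHP2 miR2, which did not pass (adjusted p = 0.0654). The IRS2 difference of -0.94 with SHP2 miR1 passed (adjusted p = 0.0255), and that of -0.97 with SHP2 miR2 did not (adjusted p = 0.0945). With SHP2 miR1 PIK3IP1 rose by 0.67 (adjusted p = 0.0333), whereas its difference of 0.51 with SHP2 miR2 did not pass (adjusted p = 0.257). PTPN11 itself had -2.32 for SHP2 miR1 (SE 0.22, adjusted p = 0.000548) and -1.11 for SHP2 miR2 (SE 0.22, adjusted p = 0.0813).

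**Figure D2:**
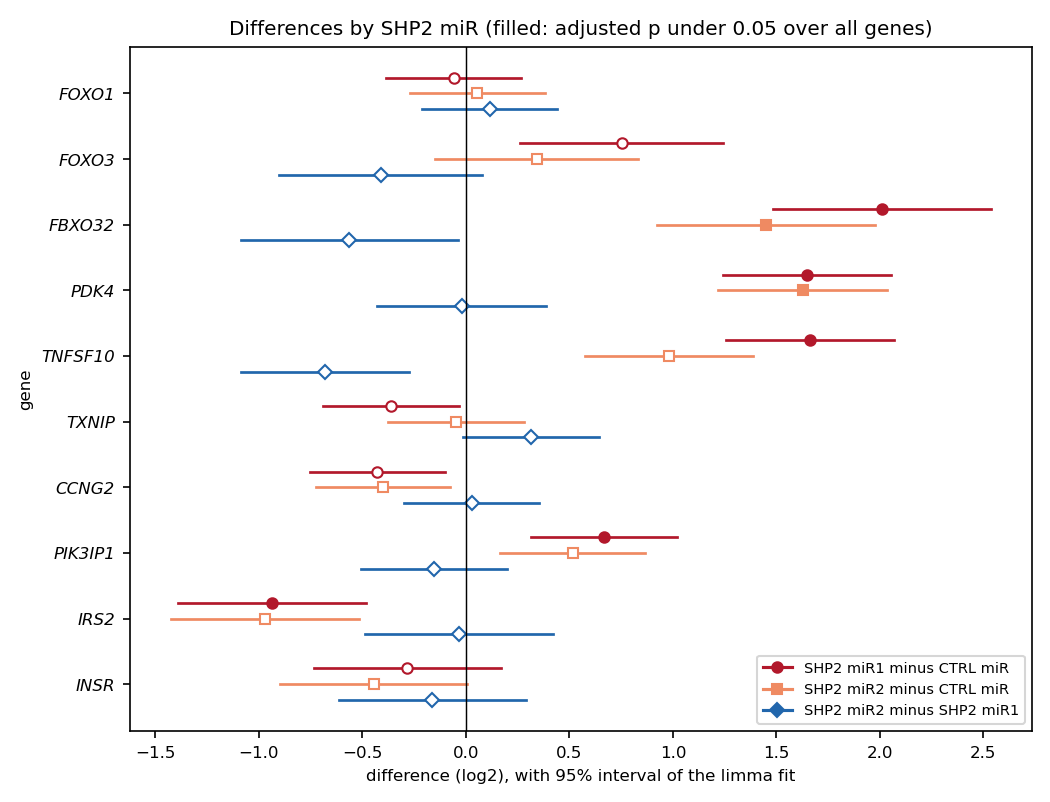
Differences (log2, x axis) of the 10 genes (y axis) from the limma fit, for SHP2 miR1 minus CTRL miR, SHP2 miR2 minus CTRL miR, and SHP2 miR2 minus SHP2 miR1; lines are 95% intervals and filled symbols passed an adjusted p of 0.05 over all genes. PDK4 and IRS2 have nearly the same difference with either SHP2 miR, while the TNFSF10 difference is 1.66 with SHP2 miR1 and 0.98 with SHP2 miR2.

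Compared directly, SHP2 miR2 minus SHP2 miR1, 0 of the 10 genes passed in limma, 2 had an unadjusted p under 0.05 and 1 passed with a mean-variance trend in the prior. Over all genes 0.190% passed, 0.152% higher and 0.0381% lower with SHP2 miR2. The 2 genes were TNFSF10, at -0.68 (95% interval -1.09 to -0.27, adjusted p = 0.134), and FBXO32, at -0.56 (95% interval -1.09 to -0.04, adjusted p = 0.260). The gene that passed with the trend was TXNIP, at 0.31 (95% interval -0.02 to 0.64, adjusted p = 0.301 without the trend and 0.00367 with it). For PDK4 the difference was -0.02, with an interval of -0.43 to 0.39, and for IRS2 it was -0.03, with an interval of -0.49 to 0.42. These intervals leave room for moderate differences between the SHP2 miRs.

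In order of their group means, FBXO32, PDK4, TNFSF10, FOXO3 and PIK3IP1 were highest with SHP2 miR1, next with SHP2 miR2 and lowest with CTRL miR. For these 5 genes SHP2 miR2 did not differ from SHP2 miR1 past the threshold. FBXO32 and PDK4 differed past it between SHP2 miR2 and CTRL miR, and the other 3 did not. CCNG2 and TXNIP had the opposite order, lowest with SHP2 miR1, with no neighbours that differed past the threshold.

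The 5 calls were then followed with each array left out. A control array carries more weight in this contrast than an SHP2 miR array. Larger changes without a control are therefore partly set by the design. FBXO32 and PDK4 held in all 6 cases, TNFSF10 in 5, IRS2 in 4 and PIK3IP1 in 0. The direction of all 5 genes was kept in each case.

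**Figure D3:**
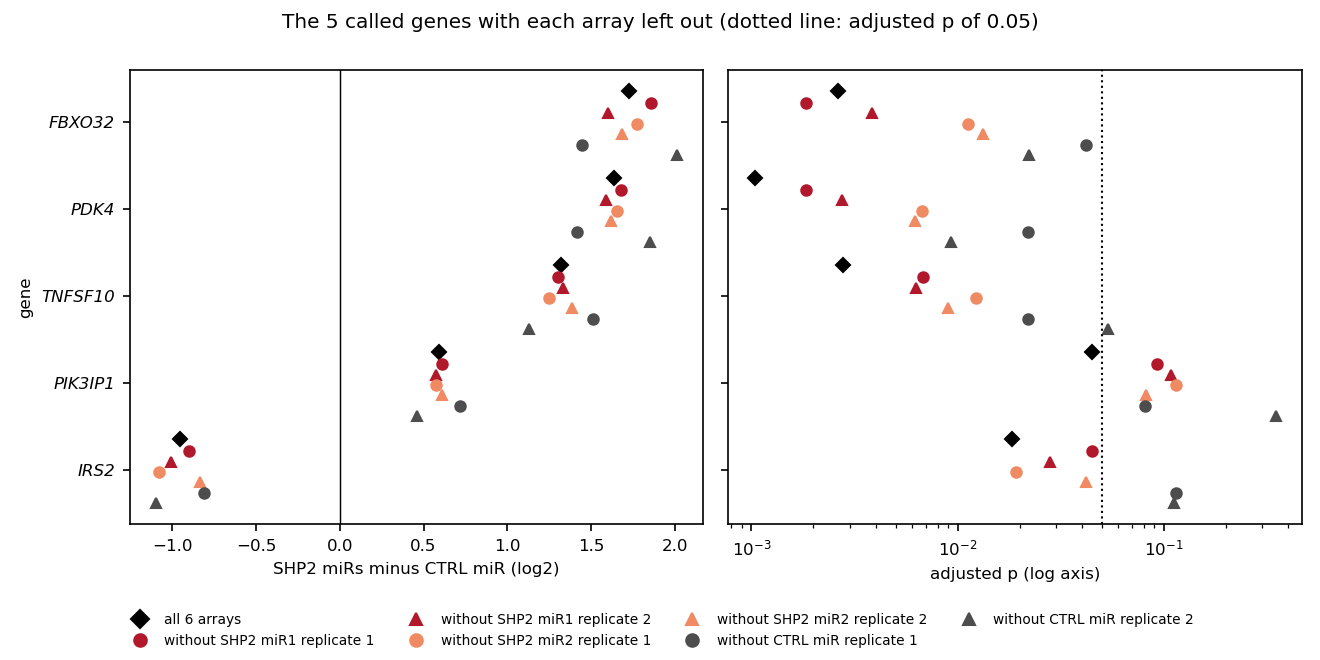
The 5 genes that passed, with all 6 arrays and then without any single one: the SHP2 miRs minus CTRL miR difference (log2, left) and its adjusted p (log axis, right, dotted line at 0.05). Points without a control array lie farthest from the values of all 6 arrays, and PIK3IP1 is right of the line whichever array is left out.

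A wider list held 32 other FOXO-induced genes. Of these, 6 rose, 2 fell and 24 did not pass, where 4.20% of all genes passed, 1.53% higher and 2.67% lower. The list median was 0.15, against 0.02 over all genes. The largest change was a decrease. DEPP1, a FOXO-induced regulator of autophagy, had 6.27 and 6.45 in SHP2 miR1 cultures, 7.58 and 7.43 in SHP2 miR2 cultures, against 8.59 and 8.34 in CTRL miR cultures, and fell by 1.53 (SE 0.14, 2.90-fold, adjusted p = 0.000867). ERBB3, the gene of the receptor HER3, which the name of the line also carries, fell by 1.35 (SE 0.13, adjusted p = 0.000959). DEPP1 and ERBB3 joined IRS2 among the FOXO-induced genes that fell. Whether the ERBB3 signal comes from the cells' own gene alone was not tested. BCL6, a transcriptional repressor, had 7.45 and 7.45 in SHP2 miR1 cultures, 7.27 and 7.17 in SHP2 miR2 cultures, against 5.89 and 6.50 in CTRL miR cultures, and rose by 1.15 (SE 0.17, adjusted p = 0.00860). SESN1, a sestrin that restrains mTORC1, rose by 0.76 (SE 0.13, adjusted p = 0.0135). The other 4 that rose, named here after their values were seen, were CITED2, YPEL3, G6PC1 and SOD2, at 0.78, 0.68, 0.59 and 0.53. Their adjusted p-values in limma were 0.0137, 0.0385, 0.0357 and 0.0491, the last close to the threshold. With SHP2 miR1 9 of the 32 rose and 3 fell, where 8.60% of all genes passed. With SHP2 miR2 0 rose and 1, ERBB3, fell, where 0.370% of all genes passed. Counts against the controls do not test a difference between the SHP2 miRs. Compared directly, 1 of the 32 passed, DEPP1, higher with SHP2 miR2 (1.15, limma adjusted p = 0.0398), where 0.190% of all genes passed. Leaving out SHP2 miR2 replicate 1 or 2 gave 5 in place of 8, leaving out control replicate 1 gave 2, and leaving out control replicate 2 gave 3. DEPP1 and ERBB3 held with each array left out, BCL6 missed the threshold without control replicate 1, and SESN1 without either control.

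**Figure D4:**
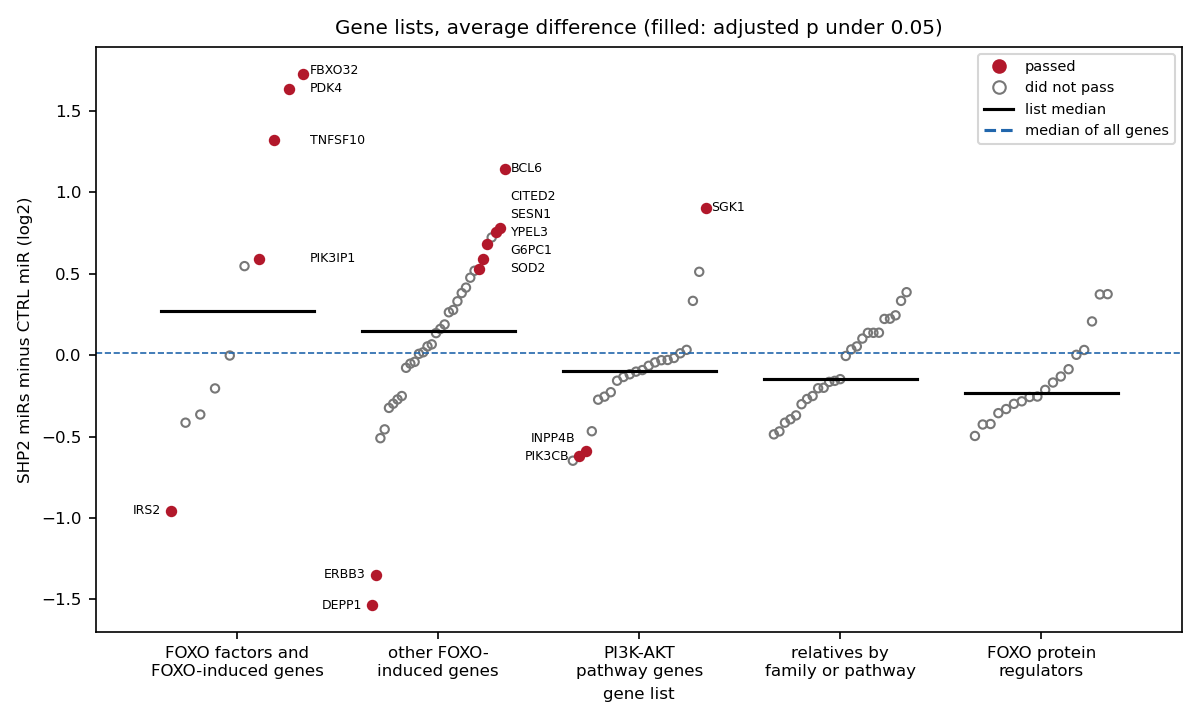
Differences of single genes (SHP2 miRs minus CTRL miR, log2, y axis) by gene list (x axis), ordered within each list; filled points passed an adjusted p of 0.05, black bars are list medians and the dashed line is the median of all genes. Both lists of FOXO-induced genes hold filled points on either side, and the last 2 lists hold none.

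Several classic targets did not pass. CDKN1A and GABARAPL1, an arrest gene and an autophagy gene, had differences of -0.08 and -0.05, and TRIM63, the muscle partner of FBXO32, had 0.05. CDKN1B, the gene of p27, had 0.41 (adjusted p = 0.119), BCL2L11, the gene of the death protein BIM, had 0.52 (adjusted p = 0.0535), and SESN3 had 0.72 (adjusted p = 0.0768). GADD45A, a stress response gene, had -0.51 (adjusted p = 0.0550). BBC3 had 0.48 (adjusted p = 0.139). With SHP2 miR1 alone, BCL2L11 (0.55, adjusted p = 0.0474), SESN3 (0.91, adjusted p = 0.0395) and BBC3 (0.75, adjusted p = 0.0401) rose and GADD45A (-0.89, adjusted p = 0.00807) fell. With SHP2 miR2 alone, BCL2L11, SESN3, BBC3 and GADD45A had 0.49, 0.53, 0.20 and -0.13, and none passed. These genes were named after their values were seen.

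Among 22 measured PI3K-AKT pathway genes, 1 rose, 2 fell and 19 did not pass, with a median of -0.10, where 4.20% of all genes passed, 1.53% higher and 2.67% lower. SGK1, an AKT-related kinase that also phosphorylates FOXO3, had 8.32 and 8.50 in SHP2 miR1 cultures, 8.03 and 8.19 in SHP2 miR2 cultures, against 7.22 and 7.48 in CTRL miR cultures, and rose by 0.91 (SE 0.14, adjusted p = 0.00973). PIK3CB, a catalytic subunit of PI3K, fell by 0.62 (SE 0.14, adjusted p = 0.0414), and INPP4B, a phosphatase that removes a product of PI3K, fell by 0.59 (SE 0.13, adjusted p = 0.0447). Both lay below the controls on all 4 SHP2 miR arrays, and neither passed when 1 array, whichever it was, was left out. SGK1 missed it without either control (adjusted p = 0.0801 and 0.0678). With SHP2 miR1 alone, SGK1 and INPP5D passed higher and GSK3B, INPP4B and PIK3CB lower, where 8.60% of all genes passed. With SHP2 miR2 alone, 0 of the list passed, where 0.370% of all genes passed. For both SHP2 miRs together, AKT1 and AKT2 had differences of 0.03 and -0.04, and 6 listed genes were not used here. The count of 3 was 0 without either control and 1 without SHP2 miR1 replicate 2 or either SHP2 miR2 array, but 5 with dim genes left out and 6 with a mean-variance trend.

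Of 25 measured relatives of the 10 genes by family or pathway, 0 passed in limma, 7 had an unadjusted p under 0.05 and 2 passed with a mean-variance trend, with a list median of -0.15. The smallest p-values were those of TXN and TNFRSF10D (adjusted p = 0.117 and 0.119), and FOXO4, the remaining measured FOXO factor, had 0.14. Of 18 proteins that modify, hold or degrade FOXO factors, 0 passed in limma, 8 had an unadjusted p under 0.05 and 6 passed with the trend, with a median of -0.23. With 4.20% of all genes passing, a count of 0 in lists of this size is close to that share. YWHAB, a 14-3-3 protein, and the kinase gene CDK2 had the smallest p-values, at -0.43 (adjusted p = 0.121) and -0.42 (adjusted p = 0.127). With SHP2 miR1 alone, CDK2 passed in limma, lower, at -0.62 (adjusted p = 0.0450), where 8.60% of all genes passed. No other gene of these lists did so.

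For each of the 5 genes that passed, the 2 genes most like it were taken by the root mean square difference over the 6 arrays, with each gene centred on its own mean. For FBXO32 these were TGFBR3, at 0.200 log2 units, and SAA2, at 0.208. The nearest to PDK4 were ACSL5, at 0.188, and ETS2, at 0.214. SUSD2 and ETNK2 lay close to TNFSF10, at 0.0937 and 0.0972. Their shared order of SHP2 miR1, SHP2 miR2 and CTRL miR follows from being chosen for likeness on these arrays. The profile of IRS2 was nearest to THSD4, at 0.123, and IGSF9B, at 0.136. PIK3IP1 had SNORA71D and DPP7 at 0.0497 and 0.0578, of which neither passed the test (adjusted p = 0.0692 and 0.0841). SAA2 and SNORA71D have close copies whose RNA may bind the same probes.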

How the data were processed

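RNA was measured on 6 HuGene-1_0-st-v1 arrays (Affymetrix, 1 colour), from 100 ng of total RNA per the labels' protocols. The deposited values are the authors' probe set values on a log2 scale, 28869 per array. Base 2 was inferred from their range. The submitters' processing notes name R 2.10 and oligo 1.8. Not given in the sources used here were the background correction, normalization, summary method and build. Medians of the arrays were 5.23 to 5.35, replicates correlated at 0.985 to 0.986 across genes, and no arrays were identical. The spread of values differed by group. Its SD was 1.92 on both SHP2 miR1 arrays and 1.95 and 1.97 with SHP2 miR2, against 1.99 and 2.02 with CTRL miR. Its part in the results was followed only through the alternative normalizations below. The number of arrays limits the precision.

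Groups and replicate numbers came from the sample titles. The platform annotation gave 1 symbol to 19310 probe sets, several to 1752 and none to 7807. Of those with 1, 19279 matched the RefSeq table by gene ID and 0 symbols were updated. The probe set with the highest mean was kept for each of 18377 genes.

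With limma 3.58.1 under R 4.3.3, a model of 3 group means took in every array (lmFit, eBayes, 3 residual and 6.10 prior degrees of freedom). P-values were two-sided and adjusted over all genes, with a threshold of 0.05. The fit was tested on simulated data. The 10 genes, 4 other gene lists and the markers were chosen with earlier results of these data known, so p-values were not adjusted over lists alone. Named genes were the 10 and PTPN11, up to 4 passing genes per list by smallest p or up to 2 where none passed, and 2 like genes for each of the 10 that passed. Exceptions are stated. Alternatives were a robust prior, a mean-variance trend, a filter on dim genes (mean at or below the 40th percentile), quantile, median and cyclic loess normalization, averaging probe sets, only the groups compared, a replicate block and leaving out each array. A group reduced to 1 array took its spread from the rest. Promoter windows are RefSeq's. Protein sequences were not used here.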

Additional observations from a re-analysis of the deposited data

Results flagged for a closer look

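DEPP1, a FOXO-induced regulator of autophagy, differed between the SHP2 miRs when these were compared directly. Its values were 7.58 and 7.43 with SHP2 miR2, against 6.27 and 6.45 with SHP2 miR1, a difference of 1.15 (SE 0.16, limma adjusted p = 0.0398). Both SHP2 miRs lay below the controls. The difference was 1.06 to 1.24 with an array left out, when it missed the threshold in all 6 cases, at adjusted p-values of up to 0.217. It also missed with only the groups compared (adjusted p = 0.0789), with cyclic loess normalization (adjusted p = 0.0585) and with the replicate block (adjusted p = 0.0751). PTPN11 had 6.90 and 7.28 with SHP2 miR2, against 6.04 and 5.71 with SHP2 miR1. Its part in the DEPP1 difference was not tested.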

How the results depend on the processing

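With each array left out, the count of the 10 genes that passed was 2 to 4 for both SHP2 miRs together, 3 to 5 for SHP2 miR1 and 0 to 2 for SHP2 miR2. The count over all genes was 108 to 512, against 771 with all 6 arrays. A mean-variance trend gave 1793 genes in all, and of the 10 it gave 7 for both SHP2 miRs together, 8 for SHP2 miR1, 4 for SHP2 miR2 and 1 for their direct comparison. Quantile normalization left 1 of the 10 for SHP2 miR2, where FBXO32 reached an adjusted p of 0.0530. FOXO3 passed for SHP2 miR1 with dim genes left out (adjusted p = 0.0443), with the trend (0.0177) and with quantile normalization (0.0417). With the trend, TXNIP and CCNG2 also passed, both lower, for both SHP2 miRs together (adjusted p = 0.00782 and 0.0298) and for SHP2 miR1 (0.000186 and 0.0379), and for SHP2 miR2 TNFSF10 passed higher (0.0219) and IRS2 lower (0.0159). For these turns the cause was not tested. Equal replicate numbers are not stated to mark a shared day or culture. Deviations of same-numbered arrays from their group means correlated between groups at 0.07, 0.14 and 0.01 across genes. With 2 arrays per group, the deviations of replicates 1 and 2 mirror each other. These small values had no reference and cannot decide whether a number marks a batch. With the replicate block 4 of the 10 passed, without PIK3IP1 (adjusted p = 0.0523), and 817 genes in all.

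Signs turned for differences that had not passed the test. FOXO1 had 0.014 under quantile and 0.024 under cyclic loess normalization (-0.032 to 0.028 with an array left out), and 0.0027 for SHP2 miR1 under cyclic loess. Between the SHP2 miRs, CCNG2 had -0.066 under quantile and -0.072 under cyclic loess (left out, -0.0033 to 0.057), IRS2 0.054 under centring (-0.28 to 0.21), PDK4 0.067 under centring and 0.0081 under cyclic loess (-0.11 to 0.068), and INSR, at -0.16 with all arrays, -0.41 to 0.083, the last without SHP2 miR2 replicate 2. TXNIP had -0.10 to 0.0049 for SHP2 miR2. By its mean over all 6 arrays, no gene of the 10 was removed as dim, at a cut of 4.76. That mean includes the arrays where a gene was high. Both TNFSF10 controls, at 4.35 and 3.97, lay below the cut. So did control replicate 1 of FBXO32, at 4.69, and of PDK4, at 4.63. These rises therefore start from dim control values.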
